A study of Homo sapiens with 5 samples.

Results

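Long noncoding RNA genes were examined across 5 lines of HMLE, an immortalised human mammary epithelial cell line. A gene was taken as a member when its symbol began with LINC, ended in -AS and a digit or in -DT, joined MIR and a number with HG, or was PANTR1, and when its highest value over the 5 arrays was 7 or more. Of 14916 named genes, 924 fitted the naming rule and 123 of these were members. The members were 78 of 470 antisense genes (-AS), 31 of 393 intergenic genes (LINC), 11 of 53 divergent transcripts (-DT), 2 of 7 microRNA host genes (HG) and PANTR1. RefSeq classed 122 members as long noncoding RNA and 1, HAS2-AS1, as antisense RNA, so the label held for all of them. The measured levels chose the members, so every count over the members below is a description of a selected list.

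The HMLE/FOXQ1, HMLE/SNAI1, HMLE/TWIST1 and HMLE/ZEB2 lines overexpressed the transcription factor in their name, and HMLE/LACZ was the control line. All 5 shared the HMLE background, were grown to near confluence without any treatment, and gave total RNA for 1 Affymetrix array each. The labels do not say which vector or promoter drove each factor, nor whether a line was 1 clone or a pool. The 4 factors drive the epithelial to mesenchymal transition (EMT), and the stated aim was to find what the models have in common. All 4 factor arrays are compared with the same LACZ array, so their differences are not independent. With 1 array per line there is no replicate error, no test and no p-value, and the number of arrays limits the precision of every value.

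Long noncoding RNAs are transcripts that are not known to be translated. An antisense gene is transcribed from the strand opposite to the gene it is named after, a divergent transcript starts beside its partner's promoter and runs the other way, and a microRNA host gene carries a microRNA hairpin in its transcript. Some long noncoding RNAs act near their own locus, some act elsewhere in the cell, and for many only transcription of the locus is known. During EMT, epithelial cells lose cell junctions and gain mesenchymal genes, and several long noncoding RNAs have been reported to be induced or lost in cancer cells that undergo it.

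The table covered chromosomes 1 to 8 and part of 9, and other chromosomes were not analysed here. Array medians lay between 4 and 4.04 on the factor arrays and at 4.05 on LACZ. All values are levels on the scale of the deposited table, taken as log2, and a difference is a factor array minus LACZ. A call needed a 2-fold distance from LACZ, which is 1 on the log2 scale, and a level of 4.72 or more, the floor, in the brighter array. In the sentences below, a value with FOXQ1 is that of the HMLE/FOXQ1 array, and likewise for the other lines. The FOXQ1 gene reached 6.23 in the FOXQ1 line, while the other factor lines lay between 3.56 and 3.61, and the LACZ line at 3.6. The TWIST1 and ZEB2 genes were called higher on all 4 factor arrays and each had its highest value in its own line, 9.96 and 7.39. The SNAI1 gene was not analysed here. Of 6 measured genes listed as basal mammary epithelial markers, 5 were lower on all 4 factor arrays, namely SFN, EGFR, CLDN1, EPCAM and ESRP1. ITGA6 was lower on the factor arrays other than ZEB2. The 6 spanned levels of 2.63 to 14.23 on factor arrays, against 11.97 to 14.85 on LACZ. EPCAM, ESRP1 and CLDN1 had the largest differences, and a loss of basal identity as such is not read from these genes. No luminal (3 measured), leukocyte (5) or endothelial (3) marker was called on any array, and the luminal and endothelial markers all stayed below the floor, while 2 leukocyte markers reached it, with at most 5.49 on factor arrays and 5.29 on LACZ. Of 3 measured stromal fibroblast markers, COL1A2 was higher on all 4 factor arrays, PDGFRA on TWIST1 (a difference of 4.04) and DPT on TWIST1 (4.27) and FOXQ1 (1.07). The 3 spanned 4.37 to 14.6 on factor arrays, against 4.54 to 7.32 on LACZ. The part of these shifts in the values below was not tested. In RNA from whole cultures, fewer cells with a transcript and less of it per cell cannot be told apart.

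Of the 123 members, 54 were at 7 or more on all 5 arrays. On the single arrays, 86 members were at 7 or more with FOXQ1, 91 with SNAI1, 92 with TWIST1, 91 with ZEB2 and 77 with LACZ. Another 46 members reached 7 only on factor arrays, and for these the rule itself required a higher value there. The reverse, 7 or more on LACZ only, held for 6 members. Just inside the limit were SEPSECS-DT, LINC01133, ERICH6-AS1 and DGUOK-AS1 with highest values of 7.01, 7.02, 7.03 and 7.05. Just outside were FAM86B2-DT, ITGA9-AS1, GRPEL2-AS1 and TGFB2-AS1 with 6.99, 6.92, 6.88 and 6.86. The range over the 5 arrays had a median of 1.39 among the members, from 0.18 to 7.

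Among the members called higher on all 4 factor arrays, 3 lie head to head with a partner gene that was called likewise. Their promoters are printed from RefSeq (GRCh38.p14), 5′ to 3′ on the strand of the noncoding gene, because a short interval holds both start sites. Capitals mark the bases between the start site of the noncoding gene and that of its partner. The windows are HHIP-AS1 at chr4:144645970-144646269 on the minus strand with 136 bases between the starts, SUCLG2-DT at chr3:67654447-67654746 on the plus strand with 84, and TRAM2-AS1 at chr6:52576952-52577251 on the plus strand with 141.
HHIP-AS1: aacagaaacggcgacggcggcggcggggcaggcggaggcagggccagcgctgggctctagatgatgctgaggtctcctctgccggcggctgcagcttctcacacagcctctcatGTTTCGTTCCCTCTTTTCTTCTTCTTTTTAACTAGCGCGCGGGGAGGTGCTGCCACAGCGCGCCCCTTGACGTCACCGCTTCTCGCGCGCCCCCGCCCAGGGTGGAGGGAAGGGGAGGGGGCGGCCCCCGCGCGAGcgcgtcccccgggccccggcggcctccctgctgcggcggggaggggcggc
SUCLG2-DT: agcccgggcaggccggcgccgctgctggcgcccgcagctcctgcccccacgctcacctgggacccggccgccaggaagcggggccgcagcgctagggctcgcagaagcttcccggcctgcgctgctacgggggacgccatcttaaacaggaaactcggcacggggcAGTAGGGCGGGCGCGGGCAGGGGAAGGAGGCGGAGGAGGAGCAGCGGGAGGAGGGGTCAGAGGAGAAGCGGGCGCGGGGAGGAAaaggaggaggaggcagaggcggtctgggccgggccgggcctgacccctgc
TRAM2-AS1: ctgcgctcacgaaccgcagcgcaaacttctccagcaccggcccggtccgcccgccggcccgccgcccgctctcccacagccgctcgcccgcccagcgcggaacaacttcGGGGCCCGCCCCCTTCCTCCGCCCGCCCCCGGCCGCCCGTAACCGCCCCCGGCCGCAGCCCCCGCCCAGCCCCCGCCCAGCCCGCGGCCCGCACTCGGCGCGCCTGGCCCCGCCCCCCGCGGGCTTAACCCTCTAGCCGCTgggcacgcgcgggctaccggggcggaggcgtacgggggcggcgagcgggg

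The 13 members higher on all 4 factor arrays were 10.6% of the members, beside 2.17% of all named genes and 5.9% of the 5088 named genes that reached 7. They were 9 antisense genes, 3 LINC genes and 1 divergent transcript. Of the 13, 10 came from the 46 members below 7 on LACZ, which had to be higher on a factor array, and 3 from the 77 members at 7 or more on LACZ. The 10.6% is therefore shaped by the level limit and is not read as a property of long noncoding RNA genes. Leaving out the FOXQ1 array gave 23 members higher on the other 3 factor arrays, a 3-fold threshold gave 8 on all 4, and a floor of 7.92 gave 7.

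**Figure D1:**
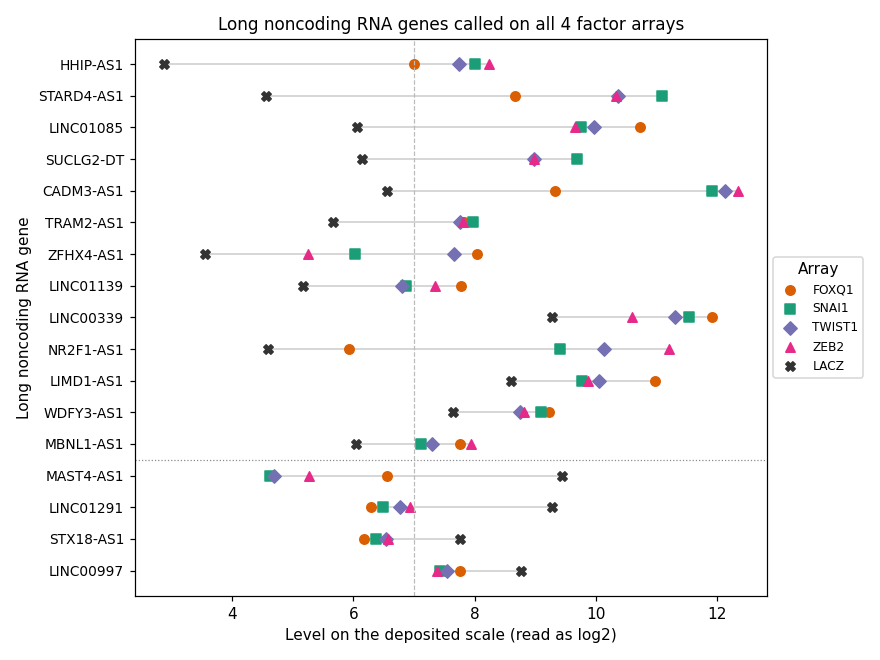
Levels on the deposited scale, read as log2, of the 13 members called higher and the 4 called lower on all 4 factor arrays, with 1 point for each of the 5 arrays. The LACZ point lies left of all 4 factor points for the 13 and right of them for the 4, with the widest gap for HHIP-AS1 among the higher members and for MAST4-AS1 among the lower.

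HHIP-AS1 (chromosome 4, 144642916 to 144646019) had levels of 7 with FOXQ1, 8 with SNAI1, 7.74 with TWIST1 and 8.23 with ZEB2, against 2.87 with LACZ, where it lay below the floor. Its partner HHIP encodes a membrane protein that binds and restrains hedgehog ligands. HHIP had 10.52, 14.17, 13.31 and 14.89 on those factor arrays in the same order, against 6.39 on LACZ. Both genes of the pair were thus higher on all 4 factor arrays, with differences of 4.13 to 5.36 for HHIP-AS1 and 4.13 to 8.5 for HHIP.

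SUCLG2-DT (chromosome 3, 67654697 to 67947713) had 8.97 with FOXQ1, 9.68 with SNAI1, 8.97 with TWIST1 and 8.97 with ZEB2, against 6.14 with LACZ. SUCLG2, a subunit of the mitochondrial succinyl-CoA ligase, had 12.41, 11.44, 11.98 and 12.27 on the factor arrays, against 9.74 on LACZ. TRAM2-AS1 (chromosome 6, 52577202 to 52583993) had 7.83, 7.98, 7.76 and 7.81 on the factor arrays, against 5.66 on LACZ. Its differences from LACZ, 2.1 to 2.32, were nearly the same on the 4 factor arrays. TRAM2, an endoplasmic reticulum protein needed for collagen I synthesis, had 16.07, 15.2, 15.55 and 15.3 on the factor arrays, against 12.61 on LACZ. These 3 head-to-head pairs were picked because both genes were called higher on all 4 factor arrays. The 3 noncoding genes also lay below 7 on LACZ, so the shared direction is not read as a result.

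STARD4-AS1 (chromosome 5, 111512226 to 111739726) had 8.66 with FOXQ1, 11.09 with SNAI1, 10.36 with TWIST1 and 10.33 with ZEB2, against 4.56 with LACZ, below the floor. Its partner STARD4, a carrier of cholesterol between membranes, starts 309 bases away on the opposite strand. STARD4 had 11.94, 11.12, 11.93 and 11.77 on the factor arrays, against 10.92 on LACZ, and was called on FOXQ1 and TWIST1 only. The span of STARD4-AS1 also overlaps NREP, a gene linked to motility and wound healing, whose levels were 13, 15.54, 15.76 and 15.64 on the factor arrays and 6.62 on LACZ. The noncoding gene and NREP were both lowest on LACZ and next lowest on FOXQ1, and whether the probes of one also read the other was not tested.

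CADM3-AS1 (chromosome 1, 159195985 to 159202422) had 9.32 with FOXQ1, 11.92 with SNAI1, 12.13 with TWIST1 and 12.35 with ZEB2, against 6.55 with LACZ. CADM3, an immunoglobulin family adhesion molecule best known from neurons, overlaps it on the opposite strand and had 9.76, 13.48, 13.67 and 13.99 on the factor arrays, against 4 on LACZ. Lying 2453 bases from CADM3-AS1, ACKR1, a decoy receptor for chemokines, had 5.71, 9.7, 9.22 and 10.5 on the factor arrays, against 3.17 on LACZ. All 3 genes of this stretch had their lowest factor value on FOXQ1 and were called higher on every factor array.

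NR2F1-AS1 (chromosome 5, 93409356 to 93585589) had 5.92 with FOXQ1, 9.4 with SNAI1, 10.13 with TWIST1 and 11.2 with ZEB2, against 4.59 with LACZ. NR2F1, an orphan nuclear receptor studied in dormant tumour cells, had 5.04, 8.35, 10.06 and 9.95 on the factor arrays, against 4.08 on LACZ. NR2F1 was called on SNAI1, TWIST1 and ZEB2 but differed by only 0.96 on FOXQ1, where NR2F1-AS1 differed by 1.33. Both genes lay below the floor on LACZ, so these sizes are uncertain and their contrast on FOXQ1 is not read. The ZEB2 value of NR2F1-AS1 lay 1.07 above every other array.

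ZFHX4-AS1 followed another order, with 8.03 with FOXQ1, 6.02 with SNAI1, 7.66 with TWIST1 and 5.25 with ZEB2, against 3.56 with LACZ. Its partner ZFHX4, a large zinc finger and homeodomain protein, had 8.8, 8.67, 9.61 and 8.57 on the factor arrays, against 6.79 on LACZ. FOXQ1 and TWIST1 gave the larger values of ZFHX4-AS1, and ZEB2 the smallest factor value. ZFHX4-AS1 lay below the floor on LACZ, so the exact size of its differences is not read.

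Among the intergenic genes, LINC01085 (chromosome 4, 14111968 to 14140052) had 10.72 with FOXQ1, 9.75 with SNAI1, 9.96 with TWIST1 and 9.65 with ZEB2, against 6.06 with LACZ. LINC01139 (chromosome 1, 238480384 to 238486017), also called LINK-A and reported to act in growth factor signalling in breast cancer cells, had 7.77, 6.87, 6.8 and 7.35 on the factor arrays, against 5.16 on LACZ. LINC00339 (chromosome 1, 22025191 to 22031224) had 11.92, 11.53, 11.3 and 10.6 on the factor arrays, against 9.27 on LACZ. All 3 had their highest value on FOXQ1. The protein-coding genes nearest to them, BOD1L1, ZP4 and CELA3A, were not called on any array.

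The remaining members higher on all 4 arrays were antisense genes whose smallest difference was near the threshold. LIMD1-AS1 had 10.98, 9.77, 10.05 and 9.87 on FOXQ1, SNAI1, TWIST1 and ZEB2, against 8.6 on LACZ. WDFY3-AS1 had 9.22, 9.1, 8.75 and 8.81 on these factor arrays, against 7.64 on LACZ, while WDFY3 itself, an autophagy adaptor, was not called on any array. MBNL1-AS1 had 7.76, 7.12, 7.3 and 7.94 on the factor arrays, against 6.05 on LACZ, and its partner MBNL1, a splicing regulator, was called higher on TWIST1 and ZEB2. For these 3 genes the smallest difference lay between 1.07 and 1.17.

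The 4 members lower on all 4 factor arrays were 3.25% of the members, beside 2.29% of all named genes and 4.82% of those reaching 7, and leaving out the FOXQ1 array gave 7. MAST4-AS1 (chromosome 5, 67001618 to 67004154) had 6.55 with FOXQ1, 4.62 with SNAI1, 4.69 with TWIST1 and 5.27 with ZEB2, against 9.44 with LACZ. MAST4, a microtubule-associated kinase whose span overlaps MAST4-AS1 on the other strand, had 9.58, 7.75, 8.89 and 9.04 on the factor arrays, against 10.91 on LACZ. Both genes of this pair were lower on every factor array. MAST4-AS1 lay below the floor on SNAI1 and TWIST1, so those values have no order. LINC01291 (chromosome 2, 74908961 to 74943494) had 6.29, 6.49, 6.76 and 6.94 on the factor arrays, against 9.27 on LACZ. The nearest protein-coding gene to LINC01291, POLE4, a DNA polymerase epsilon subunit, was not called on any array.

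The other members of the lower set were STX18-AS1 and LINC00997. STX18-AS1 had 6.18 with FOXQ1, 6.38 with SNAI1, 6.54 with TWIST1 and 6.57 with ZEB2, against 7.76 with LACZ. Its head-to-head partner STX18, a membrane fusion protein of the endoplasmic reticulum, starts 83 bases away and had 9.97, 10.34, 10.69 and 10.89 on the factor arrays, against 10.04 on LACZ. STX18 was not called on any array, so this pair shared a start region but not a call. LINC00997 had 7.75, 7.42, 7.54 and 7.38 on the factor arrays, against 8.77 on LACZ, and its FOXQ1 difference of -1.02 was near the threshold. Quantile normalization gave -0.96 and centring on the median gene -0.99 for that difference, so under either LINC00997 was no longer lower on all 4 arrays. The nearest protein-coding gene to LINC00997, KBTBD2, was called lower on FOXQ1, SNAI1 and ZEB2, with differences of -1.41, -1.61 and -1.26. On TWIST1 it differed by -0.79 and was not called.

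Snail and ZEB proteins bind E-boxes, with the letters CAGGTG or CACCTG, and usually repress. Of the 92 members with a RefSeq promoter of 300 bases, 17 (18.5%) held these letters on either strand, beside 20.6% of all 35116 promoters in that table. Among the members called higher on all 4 arrays 1 of 10 held them, among those called lower on all 4 arrays 2 of 3, and among those with no call 5 of 35. The forkhead letters TGTTTAC or GTAAACA were in 4 of the 92 member promoters (4.35%) and in 3.42% of all promoters. They were in 0 of the 10 and 0 of the 3. The higher member with an E-box was SUCLG2-DT. Its CACCTG stands in lower case in the promoter printed earlier, where capitals mark the bases between start sites. The 2 lower members with an E-box were LINC00997 and STX18-AS1. LINC00997 was no longer lower on all 4 arrays under quantile normalization or centring, so the 2 of 3 depends on the processing. A link between E-boxes and direction was not tested. The promoters of these 2 lower members are printed with the E-box in capitals, because letters of this kind are those a Snail or ZEB protein reads. LINC00997 is at chr7:32758036-32758335 on the plus strand and STX18-AS1 at chr4:4541881-4542180 on the plus strand.
LINC00997: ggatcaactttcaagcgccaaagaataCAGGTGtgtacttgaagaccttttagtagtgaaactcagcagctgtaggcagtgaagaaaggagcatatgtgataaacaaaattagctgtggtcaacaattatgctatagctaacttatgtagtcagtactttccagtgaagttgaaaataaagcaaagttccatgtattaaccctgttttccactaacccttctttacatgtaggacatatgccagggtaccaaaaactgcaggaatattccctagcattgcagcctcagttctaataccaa
STX18-AS1: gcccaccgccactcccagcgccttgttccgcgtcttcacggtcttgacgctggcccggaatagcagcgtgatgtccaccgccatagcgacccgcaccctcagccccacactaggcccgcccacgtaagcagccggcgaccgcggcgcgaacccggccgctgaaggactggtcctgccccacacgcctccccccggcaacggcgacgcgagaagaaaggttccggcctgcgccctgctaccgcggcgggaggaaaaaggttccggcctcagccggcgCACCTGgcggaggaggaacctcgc
The E-box starts 223 bases before the start site of LINC00997. In STX18-AS1 it starts at base 27, with the start site counted as base 1. A match is a description of these letters and not evidence of binding.

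Against LACZ, 28 members (22.8%) were called higher with FOXQ1, 31 (25.2%) with SNAI1, 33 (26.8%) with TWIST1 and 29 (23.6%) with ZEB2. The shares over all named genes were 6.54%, 4.26%, 7.27% and 6.4% in the same order. Among the 5088 named genes that reached 7 they were 16%, 10.1%, 17.9% and 15.4%. Called lower were 16 members (13%) with FOXQ1, 13 (10.6%) with SNAI1, 14 (11.4%) with TWIST1 and 15 (12.2%) with ZEB2. The lower shares were 6.98%, 8.02%, 4.22% and 4.32% over all named genes, and 15.8%, 17.9%, 8.14% and 9.1% among those that reached 7. At least 1 call was made for 78 members (63.4%), beside 23.3% of all named genes and 51.3% of those reaching 7.

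**Figure D2:**
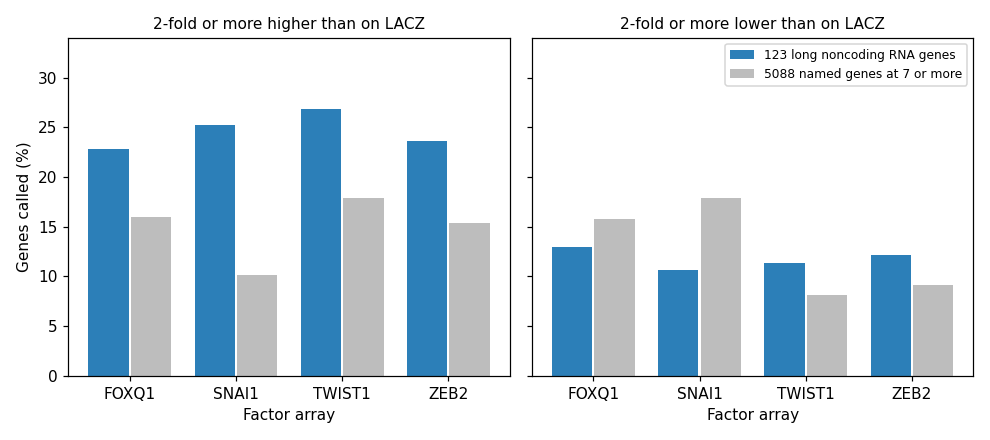
Percentage of the 123 members and of the 5088 named genes reaching 7 that were called higher (left) and lower (right) than on LACZ, for each factor array. Member bars for higher calls run from 22.8% to 26.8%, but 46 of the members reached 7 only on factor arrays, so their height follows in part from how members were chosen.

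The balance differed with the level on LACZ. Among the 77 members at 7 or more on LACZ, 8 were called higher and 16 lower with FOXQ1, 8 and 11 with SNAI1, 8 and 13 with TWIST1, and 4 and 14 with ZEB2. Of 4341 other genes at 7 or more on LACZ, 11.8% were higher and 17.7% lower with FOXQ1, 6.2% and 20.3% with SNAI1, 12.9% and 9.1% with TWIST1, and 11% and 10% with ZEB2. The 46 members below 7 on LACZ supplied 20 of the 28 higher calls with FOXQ1, 23 of 31 with SNAI1, 25 of 33 with TWIST1 and 25 of 29 with ZEB2. These members had entered the list through a factor array, so the excess of higher over lower calls among all 123 members is not read as a result. The median difference of the members was 0.21 with FOXQ1, 0.29 with SNAI1, 0.26 with TWIST1 and 0.19 with ZEB2. The corresponding medians of genes reaching 7 were 0, -0.22, 0.15 and 0.09. Antisense members had medians of 0.32, 0.27, 0.34 and 0.17, and LINC members of -0.29, 0.25, -0.07 and 0.1. These shares describe a list selected on level, and the difference from other genes was not tested.

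A set of 13 members was called alike on SNAI1, TWIST1 and ZEB2 but not on FOXQ1, which was 10.6% of the members, beside 1.03% of all named genes and 2.48% of those reaching 7. In this set 10 members were higher and 3 lower than on LACZ. Of the 10, 9 were below 7 on LACZ and so had entered the list through the arrays where they were high, and LINC00342 was the exception. Nothing is therefore read from the 10.6%. VCAN-AS1 (chromosome 5, 83531352 to 83562314) had 4.21 with FOXQ1, 10.99 with SNAI1, 11.11 with TWIST1 and 11.21 with ZEB2, against 5.07 with LACZ. VCAN, the matrix proteoglycan versican, had 2.88, 9.44, 10.43 and 10.57 on the factor arrays, against 3.93 on LACZ. SNAI1, TWIST1 and ZEB2 lay far above LACZ and FOXQ1 for both genes. VCAN was below the floor on FOXQ1 and LACZ, and VCAN-AS1 on FOXQ1, so the order of those 2 arrays and the exact size of the VCAN differences are not read. VCAN-AS1 has several probe sets, whose median gave differences of -0.41, 3.21, 3.49 and 3.13, which kept the calls at a smaller size.

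HAS2-AS1 is antisense to HAS2, the main hyaluronan synthase, and is known to modulate it. HAS2-AS1 had 4.17 with FOXQ1, 7.31 with SNAI1, 7.22 with TWIST1 and 5.94 with ZEB2, against 3.65 with LACZ. HAS2 had 4.17, 11.45, 9.87 and 9.49 on the factor arrays, against 4.22 on LACZ. FOXQ1 and LACZ both lay below the floor for this pair, and ZEB2 gave the smallest of the 3 called values for each gene.

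MSC-AS1 had 5.44 with FOXQ1, 6.84 with SNAI1, 8.03 with TWIST1 and 7.08 with ZEB2, against 4.84 with LACZ. Its partner MSC, the repressor musculin, had 5.34, 5.96, 7.52 and 6.85 on the factor arrays, against 5.41 on LACZ, and was called on TWIST1 and ZEB2. SLC8A1-AS1 had 6.41, 7.33, 7.01 and 7.74 on the factor arrays, against 5.78 on LACZ. SLC8A1, a sodium and calcium exchanger, had 6.74, 8.07, 8.01 and 8.92 on the factor arrays, against 5.84 on LACZ, and was called on the same 3 arrays as its antisense gene. The FOXQ1 value of all 4 genes lay within 1 of LACZ.

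**Figure D3:**
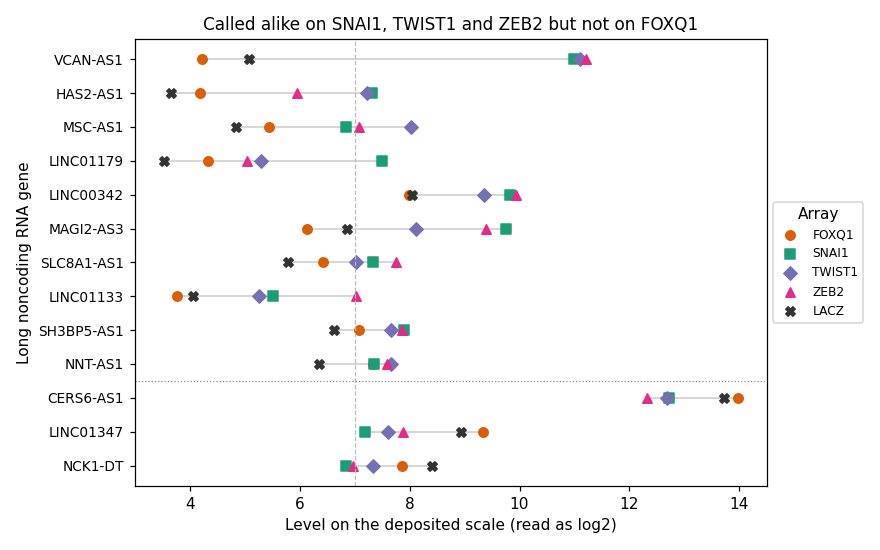
Levels on the deposited scale, read as log2, of the 13 members called alike on SNAI1, TWIST1 and ZEB2 but not on FOXQ1, with 1 point per array and the limit of 7 as a dashed line. For VCAN-AS1 the FOXQ1 and LACZ points sit at 4.21 and 5.07 and the other 3 between 10.99 and 11.21.

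MAGI2-AS3 (chromosome 7, 79452957 to 79471208) has been reported to be reduced in several carcinomas. It had 6.13 with FOXQ1, 9.76 with SNAI1, 8.12 with TWIST1 and 9.39 with ZEB2, against 6.85 with LACZ. LINC01133, reported to restrain EMT in colorectal cancer cells, had 3.76 with FOXQ1, 5.5 with SNAI1, 5.25 with TWIST1 and 7.02 with ZEB2, against 4.05 with LACZ. Its ZEB2 value lay 1.52 above every other array. LINC01179 (chromosome 4, 165684639 to 165762778) had 4.32 with FOXQ1, 7.49 with SNAI1, 5.29 with TWIST1 and 5.04 with ZEB2, against 3.51 with LACZ. Here SNAI1 stood 2.2 above the next array. LINC01133 and LINC01179 both lay below the floor on FOXQ1 and LACZ, so the exact size of their differences is not read. TLL1, the protein-coding gene nearest to LINC01179, was called higher on SNAI1, TWIST1 and ZEB2 (2.39, 2.28 and 1.33) and lower on FOXQ1 (-1.47). SLAMF9, nearest to LINC01133, was not called on any array. LINC00342 had 7.99, 9.83, 9.35 and 9.94 on the factor arrays, against 8.04 on LACZ. SH3BP5-AS1 and NNT-AS1 completed the higher set with called differences of 1 to 1.31. NNT-AS1 differed by 0.99 on FOXQ1, so the threshold alone kept it out of the members higher on all 4 arrays, and it joined them when the arrays were centred on the median gene.

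The 3 lower members of the set were CERS6-AS1, LINC01347 and NCK1-DT. CERS6-AS1 had 13.99 with FOXQ1, 12.72 with SNAI1, 12.69 with TWIST1 and 12.33 with ZEB2, against 13.72 with LACZ. Its partner CERS6, a ceramide synthase gene whose span covers 3184 of the 14479 bases of CERS6-AS1, had 13.6, 11.97, 12.79 and 12.56 on the factor arrays, against 12.48 on LACZ, and was called only on FOXQ1, as higher. LINC01347 had 9.34, 7.18, 7.61 and 7.87 on the factor arrays, against 8.94 on LACZ. NCK1-DT had 7.85, 6.83, 7.33 and 6.96 on the factor arrays, against 8.4 on LACZ. The calls of CERS6-AS1 on SNAI1 and TWIST1 rested on differences of -1 and -1.03, and the SNAI1 difference became -0.85 under quantile normalization and -0.88 under centring. The median of its probe sets ended the calls of LINC01347 on SNAI1 (-0.51) and ZEB2 (-0.39).

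FOXQ1 alone was called for 14 members, 6 higher and 8 lower, beside 4% of all named genes and 8.75% of those reaching 7. PIK3CD-AS2 had 7.52 with FOXQ1, 5.16 with SNAI1, 5.82 with TWIST1 and 5.35 with ZEB2, against 4.98 with LACZ. The others higher on FOXQ1 alone were PAXIP1-AS2, ANKRD13C-DT, EMC3-AS1, MDC1-AS1 and GAS5-AS1, with differences of 1.15 to 1.82. PRRT3-AS1 had 6.29 with FOXQ1, 9.28 with SNAI1, 8.87 with TWIST1 and 8.66 with ZEB2, against 8.66 with LACZ, and lay 2.37 below every other array. RNASEH1-DT and SMAD1-AS1 also lay below every other array on FOXQ1, by 1.29 and 1.19. Both partners, the ribonuclease gene RNASEH1 and the BMP signal transducer SMAD1, were called lower on FOXQ1 as well. The FOXQ1 array also held the lowest value of EPB41L4A-AS1, a host of a small nucleolar RNA, with 14.11, beside 14.95 on SNAI1, 14.54 on TWIST1 and 15.02 on ZEB2, against 15.18 on LACZ.

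LINC01322 and LINC00973 were the members furthest below LACZ on FOXQ1. LINC01322 (chromosome 3, 165206948 to 165539437) had 7.92 with FOXQ1, 13.28 with SNAI1, 11.35 with TWIST1 and 13.98 with ZEB2, against 14.71 with LACZ. The median of its probe sets gave differences of -3.39, -0.85, -1.63 and -0.37, which ended the call on SNAI1 and kept those on FOXQ1 and TWIST1. LINC00973 (chromosome 3, 98914566 to 98998841) had 3.9 with FOXQ1, 9.51 with SNAI1, 7.71 with TWIST1 and 8.19 with ZEB2, against 10.25 with LACZ. It was below the floor on FOXQ1 and not called on SNAI1, where it differed by -0.74. The nearest coding gene to LINC00973, DCBLD2, a neuropilin-like membrane protein, had 16.47, 16.92, 17.28 and 17.47 on the factor arrays, against 17.45 on LACZ, and was not called. Other members whose call on FOXQ1 was shared with some factors included FGD5-AS1, with 13.1, 12.15, 12.14 and 11.29 on the factor arrays, against 10.87 on LACZ.

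PANTR1 (chromosome 2, 104805425 to 104853183) is transcribed next to the neural transcription factor gene POU3F3, and its mouse counterpart takes part in the development of the cerebral cortex. PANTR1 had 4.79 with FOXQ1, 4.9 with SNAI1, 10.56 with TWIST1 and 3.94 with ZEB2, against 4.09 with LACZ. Its TWIST1 value lay 5.66 above every other array. PANTR1 lay below the floor on ZEB2 and LACZ, so the exact size of its difference from LACZ is not read. POU3F3, whose start lies 2639 bases away on the opposite strand, had 5.91, 5.26, 7.36 and 5.56 on the factor arrays, against 5.56 on LACZ, and was called on TWIST1 as well. The fibroblast markers PDGFRA and DPT also had their highest values on TWIST1, 8.58 and 8.9, against 4.54 and 4.63 on LACZ, and their part in the PANTR1 value was not tested. PTPRG-AS1 and PSMG3-AS1 lay 1.54 and 1.09 above every other array on TWIST1, and SLC7A11-AS1 lay 1.55 below. On ZEB2, LINC02912, LINC00862 and LINC01133 lay 1.45, 1.15 and 1.52 above every other array. On SNAI1, PAX8-AS1 and TM4SF19-AS1 lay 1.38 and 1.26 below every other array.

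**Figure D4:**
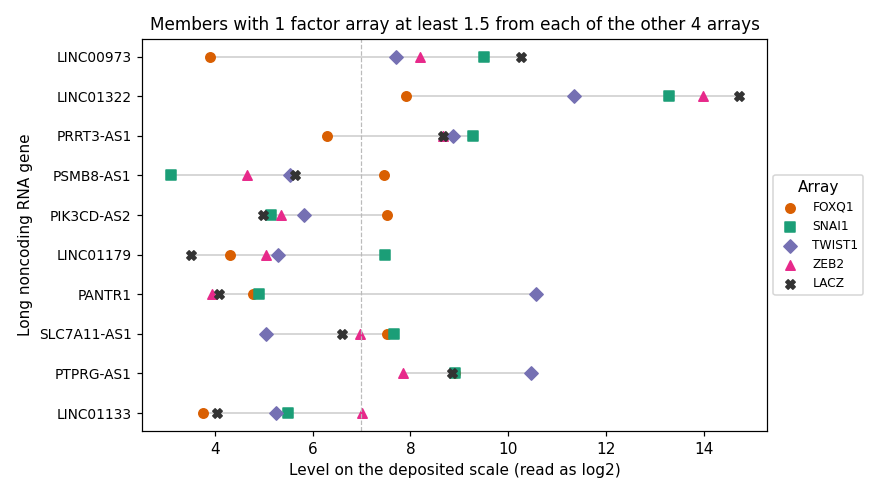
Levels on the deposited scale, read as log2, of members for which 1 factor array lay at least 1.5 from each of the other 4 arrays, with 1 point per array. PANTR1 stands out with 10.56 on TWIST1 and at most 4.9 elsewhere, and LINC01322 and LINC00973 with low values of 7.92 and 3.9 on FOXQ1.

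Opposite calls on different factor arrays were made for 4 members, beside 0.697% of all named genes and 1.89% of those reaching 7. PSMB8-AS1 (chromosome 6, 32844086 to 32846500) had 7.46 with FOXQ1, 3.1 with SNAI1, 5.53 with TWIST1 and 4.67 with ZEB2, against 5.65 with LACZ. PSMB8, an interferon-inducible subunit of the immunoproteasome, had 13.56, 8.77, 11.5 and 11.97 on the factor arrays, against 12.19 on LACZ. Both were called higher on FOXQ1 and lower on SNAI1. PSMB8-AS1 lay below the floor on SNAI1 and ZEB2, so the exact size of its SNAI1 difference is not read. SLC7A11-AS1 had 7.53, 7.66, 5.05 and 6.97 on the factor arrays, against 6.6 on LACZ. SLC7A11, the cystine and glutamate exchanger, had 12.06, 11.46, 9.38 and 11.26 on the factor arrays, against 10.4 on LACZ. Both genes of this pair were called higher on SNAI1 and lower on TWIST1. PTPRG-AS1 had 8.92, 8.91, 10.46 and 7.85 on the factor arrays, against 8.86 on LACZ. PTPRG, a receptor tyrosine phosphatase, had 8.94, 9.3, 10.29 and 9.38 on the factor arrays, against 6.11 on LACZ, so it was higher on all 4 factor arrays while PTPRG-AS1 was higher on TWIST1 and lower on ZEB2. LINC01358 had 7.72, 5.88, 7.19 and 5.22 on the factor arrays, against 6.26 on LACZ.

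Of the 88 members named after another gene, 82 had that partner measured. Where a member was called, its partner was called in the same direction in 12 of 27 cases with FOXQ1 (44.4%), 15 of 30 with SNAI1 (50%), 17 of 27 with TWIST1 (63%) and 17 of 27 with ZEB2 (63%). The partner was called in the opposite direction in 0 of 27 cases with FOXQ1, 2 of 30 with SNAI1, 1 of 27 with TWIST1 and 1 of 27 with ZEB2. Where the member was not called, the partner was called in either direction in 19 of 55 cases with FOXQ1 (34.5%), 13 of 52 with SNAI1 (25%), 13 of 55 with TWIST1 (23.6%) and 8 of 55 with ZEB2 (14.5%). Among all named genes, 6.54%, 4.26%, 7.27% and 6.4% were called higher in the same array order, and 6.98%, 8.02%, 4.22% and 4.32% lower. Among those reaching 7 they were 16%, 10.1%, 17.9% and 15.4% higher, and 15.8%, 17.9%, 8.14% and 9.1% lower. Across the 82 pairs, Pearson's r of member and partner differences was 0.52 with FOXQ1, 0.73 with SNAI1, 0.76 with TWIST1 and 0.74 with ZEB2. These correlations are across genes that share an array pair and in part overlapping sequence, and genes are not independent replicates. Many of the largest differences are of members such as CADM3-AS1, HHIP-AS1 and VCAN-AS1. These lay below 7 on LACZ and entered the list through factor arrays, so the size of r is not read as a result. Members of this kind are also among the matching calls, so those counts are not read as a result either. For members without a partner in their name, the nearest protein-coding gene was measured in 30 of 35 cases. It was called alike in 1 of 13, 2 of 12, 3 of 16 and 2 of 15 cases in the same array order, and opposite only with TWIST1, in 2 of 16. Where the member was not called, the nearest gene was called in 5 of 17, 2 of 18, 0 of 14 and 1 of 15 cases. Of these 30 genes 18 reached 7, beside 67 of the 82 named partners. A call needs only the floor of 4.72, and the part of level in these counts was not tested.

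**Figure D5:**
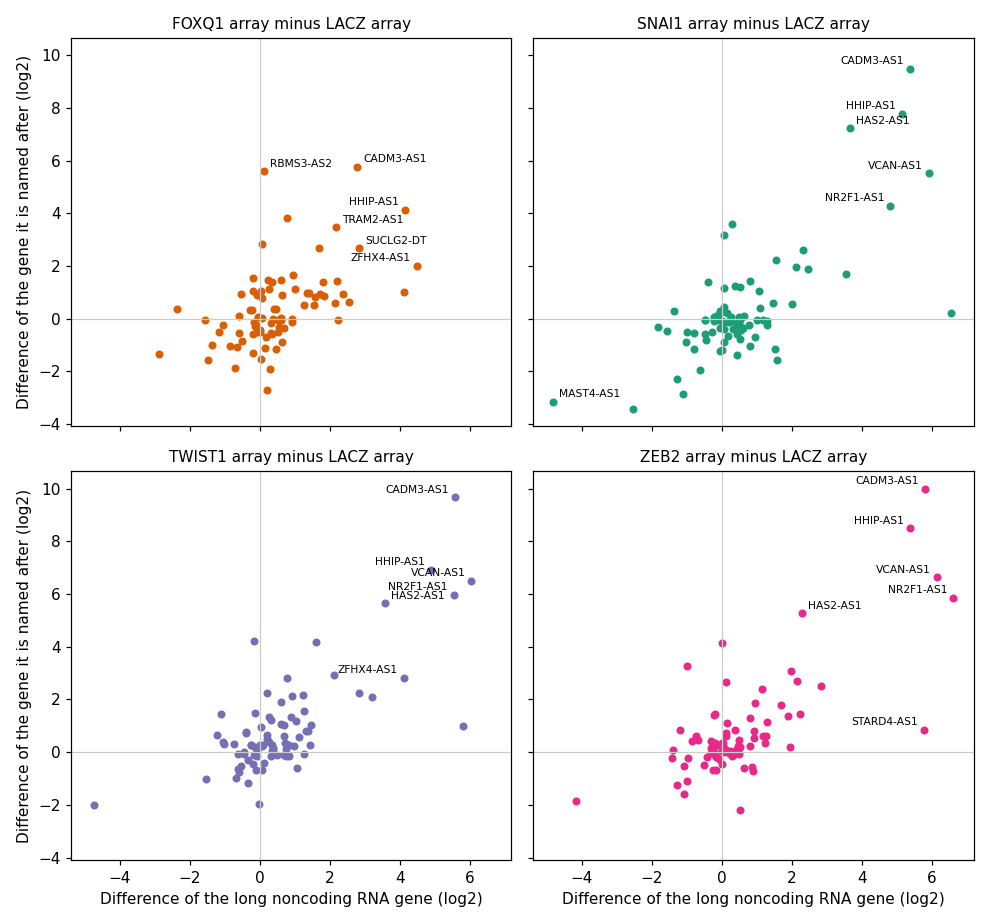
Difference of each named partner gene against that of the long noncoding RNA gene, both as factor array minus LACZ on the deposited scale read as log2, with 1 panel per factor array and 1 point for each of 82 pairs. Points with large differences lie mostly in the quadrants of equal sign, with r from 0.52 on FOXQ1 to 0.76 on TWIST1. Many of these points are members that entered the list only through factor arrays.

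Matching calls occurred both in pairs with close start sites and in overlapping pairs. The counts of member calls below are summed over the 4 factor arrays, so 1 pair can count up to 4 times. All 4 differences of a pair use the same LACZ array. Members that entered the list only through factor arrays are among these pairs, so the counts are not read as a result. In 23 pairs the start sites lay within 1 kb on opposite strands. Of 34 member calls in these pairs, the partner was called alike for 19, opposite for 0 and not called for 15. Some of these 23 pairs also have overlapping spans, among them STARD4-AS1 with STARD4 and PSMB8-AS1 with PSMB8. In 34 pairs with overlapping spans on opposite strands and more distant starts, the partner was called alike for 22 of 34 member calls, opposite for 3 and not called for 9. In 17 more pairs the spans overlapped and the strand was not in the table used, with 19 of 38 alike and 1 opposite. The sources used here do not say how the values used strand, so where spans overlap, signal from a member and from its partner cannot be told apart. Among the 10 members higher on all 4 factor arrays with a measured partner by name, the partner was higher on all 4 arrays for 5, namely CADM3, ZFHX4, HHIP, SUCLG2 and TRAM2.

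Pairs that parted ways were also present. TMEM44-AS1 had 6.96 with FOXQ1, 6.75 with SNAI1, 6.05 with TWIST1 and 6.95 with ZEB2, against 7.16 with LACZ, and was lower on TWIST1. TMEM44, a multipass membrane protein, had 5.85, 5.71, 5.76 and 5.76 on the factor arrays, against 4.31 on LACZ, and was higher on all 4. SCOC-AS1 had 7.64, 8.25, 7.8 and 7.62 on the factor arrays, against 6.74 on LACZ, while SCOC, a coiled-coil protein of the Golgi, had 11.52, 10.38, 10.95 and 10.83 on the factor arrays, against 11.54 on LACZ. On SNAI1 the antisense gene was called higher and SCOC lower. RBMS3-AS2 had 15.89, 16.05, 15.62 and 15.79 on the factor arrays, against 15.78 on LACZ, and was not called, whereas RBMS3, an RNA-binding protein, had 12.8, 10.79, 11.42 and 11.34 on the factor arrays, against 7.21 on LACZ. For this pair the coding gene was higher on all 4 factor arrays and the antisense gene stayed within 0.43 over all 5 arrays.

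The host genes of microRNAs among the members were MIR4435-2HG and MIR181A1HG. Mature sequences are printed from RefSeq (GRCh38.p14) 5′ to 3′, with the seed, bases 2 to 8, in capitals. They show that hsa-miR-181a-5p and hsa-miR-181b-5p of the MIR181A1HG locus share a seed. The 3p products of these 2 hairpins have other seeds and are not printed.
hsa-miR-181a-5p: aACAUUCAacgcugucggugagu
hsa-miR-181b-5p: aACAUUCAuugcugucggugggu
hsa-miR-4435: aUGGCCAGagcucacacagagg
MIR181A1HG had 6.04 with FOXQ1, 7.11 with SNAI1, 6.87 with TWIST1 and 7.67 with ZEB2, against 6.6 with LACZ. It was called only on ZEB2, with a difference of 1.07 that became 0.97 under quantile normalization. The hairpin probe set of MIR181B1 had 5.4, 5.7, 5.7 and 5.9 on the factor arrays, against 5.37 on LACZ. That of MIR181A1 lay below the floor on every array, between 3.24 and 4.15 on the factor arrays and at 3.96 on LACZ. MIR4435-2HG had 15.62, 15.36, 15.2 and 15.41 on the factor arrays, against 14.87 on LACZ, and was not called. It has a near-identical copy on the same chromosome, CYTOR, so its value may hold signal of both and is uncertain.

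Of the 123 members, 45 had no call on any factor array, and for 33 the 5 arrays lay within 2-fold of each other. The smallest ranges were 0.18 for PGM5P3-AS1, 0.25 for OSBPL10-AS1 and SAP30L-AS1, 0.26 for KLHL7-DT, 0.27 for ARF4-AS1 and 0.34 for ZMYM4-AS1. Of the 8 members taken for their high mean over the 5 arrays, 4 had no call, with means of 15.83 for RBMS3-AS2, 15.29 for MIR4435-2HG, 12.85 for LINC00623 and 12.31 for TMEM161B-DT. The other 4, EPB41L4A-AS1 (14.76), CERS6-AS1 (13.09), LINC00869 (12.56) and LINC01322 (12.25), were each called on at least 1 factor array. These means come from different probe sets, so their order does not rank the RNAs by abundance. LINC00623 has 2 probe sets, and its differences of -0.96, -0.56, -0.27 and -0.92 with FOXQ1, SNAI1, TWIST1 and ZEB2 became -2.23, -1.52, -1.16 and -2.17 when their median was used, which called it lower on all 4 arrays. LINC00623 and LINC00869 lie in duplicated stretches of chromosome 1, so their values may share signal with copies and are uncertain.

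Between factor arrays, the members were most often apart between FOXQ1 and ZEB2. At least 2-fold apart were 45 members (36.6%) between FOXQ1 and ZEB2, beside 10.5% of all named genes and 24.6% of those reaching 7. Between FOXQ1 and SNAI1 they were 36 (29.3%, beside 11% and 25.5%), and between FOXQ1 and TWIST1 28 (22.8%, beside 7.73% and 17.9%). Between TWIST1 and ZEB2 they were 24 (19.5%, beside 4.96% and 10.6%), between SNAI1 and TWIST1 19 (15.4%, beside 8.38% and 18.9%) and between SNAI1 and ZEB2 18 (14.6%, beside 7.65% and 17.3%). These members and genes were selected on level, several of the shares lie near those of genes reaching 7, and the differences between the shares were not tested.

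Other long noncoding RNA genes whose symbols fall outside the naming rule were read from a list of 32 names, of which 14 were measured outside that rule. Of the 14, 2 reached 7, and 7 lay below the floor on every array and could not be called. None was called higher on all 4 factor arrays, beside 2.17% of all named genes, and 1 was lower on all 4, beside 2.29%. No call was made for 11, while 23.3% of all named genes had at least 1 call. TP53TG1, a gene induced by p53, was lower on all 4, with 9.95 with FOXQ1, 9.93 with SNAI1, 9.93 with TWIST1 and 9.46 with ZEB2, against 11.06 with LACZ. ZEB2-AS1, which is known to promote ZEB2 protein by keeping an intron in its transcript, fitted the naming rule but never reached 7, with 4.2, 4.14, 4.14 and 4.14 on the factor arrays, against 3.87 on LACZ.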

How the data were processed

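For 5 arrays the authors deposited a table of values per probe set. The deposited values, taken as log2 since no base is stated, were made by the authors with the Transcriptome Analysis Console on hg38, per the submitters' processing notes. Not given in the sources used here are its version, the normalization, the array model and the use of strand. The table held 65521 probe sets, of which 16126 had 1 gene symbol in the platform annotation, 419 several and 48976 none. Updating symbols through RefSeq (GRCh38.p14) named 15764 probe sets, less 194 whose chromosome did not match. For each of the 14916 genes, the probe set of highest mean level was used. The floor of 4.72 was the median of gene mean levels, and no detection calls were used. The table held 0 other columns of per-sample values.

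The members, the gene lists and the processing were chosen with earlier results of these data known. The text names the microRNA hosts and PANTR1, up to 12 members per direction called on all 4 factor arrays, the 4 with the largest called differences per factor and direction, and the 3 furthest apart per array and direction. It adds the 8 with the highest mean, the 6 with the smallest range, the 4 on each side of the limit, members of opposite calls, and partners. Other named genes were chosen after their values were seen, among them the remaining members called alike on 3 factors or on FOXQ1 alone, NREP, ACKR1, CYTOR and ZEB2-AS1. The partner was the gene in the member's name, or else the nearest protein-coding gene. Calling was tested on simulated data. Alternatives were quantile normalization, centring, other floors, folds, member limits and probe set summaries, platform symbols and leaving out each factor array in turn. Loess with a span of 0.3, counts split by the level on LACZ and neighbours within 500 kb were added after seeing the data. The tools were pandas 2.3.3, numpy 2.4.6, matplotlib 3.10.9 and statsmodels 0.14.6 under Python 3.11.15.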

Additional observations from a re-analysis of the deposited data

Results flagged for a closer look

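For 4 members the difference from LACZ had opposite signs, each past 2-fold, on different factor arrays. LINC01358 differed by 1.46 on FOXQ1 and by -1.04 on ZEB2. PSMB8-AS1 differed by 1.81 on FOXQ1 and by -2.55 on SNAI1. PTPRG-AS1 differed by 1.6 on TWIST1 and by -1.01 on ZEB2. SLC7A11-AS1 differed by 1.06 on SNAI1 and by -1.55 on TWIST1. With 1 array per line, the difference between the factors was not tested for any of them.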

How the results depend on the processing

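No paired analysis was possible because each line has 1 array and no replicate number. The 13 members higher on all 4 factor arrays became 7 with the floor at percentile 75 (7.92), 21 at 1.5-fold, 8 at 3-fold and 23 without the FOXQ1 array. The 4 members lower on all 4 became 8 at 1.5-fold, 2 at 3-fold, 9 with members taken at 6 or more and 7 without the FOXQ1 array. With that higher floor, higher calls numbered 14 with FOXQ1, 18 with SNAI1, 17 with TWIST1 and 13 with ZEB2, and lower calls 7 with SNAI1. At 1.5-fold there were 25 lower on FOXQ1, 47 higher on SNAI1 and 26 lower on ZEB2. At 3-fold there were 7 lower on FOXQ1, 17 higher and 5 lower on SNAI1, 17 higher and 5 lower on TWIST1, and 19 higher and 3 lower on ZEB2. These settings change the threshold, the floor, the members or the arrays used, so fewer or more genes can pass by construction. Every other count stayed within 1.5 times of its value, and no count changed direction. Of 179 member calls, 175 were kept under quantile normalization, 175 under centring and 176 when each gene took its median probe set. The median difference of all named genes with SNAI1 was -0.09 as deposited and 0.03 after centring, and that of the members 0.29 and 0.41. All 13 members higher on all 4 arrays were kept under these 3 settings. NNT-AS1 joined them under centring, LINC00997 left the lower set under quantile normalization and centring, and LINC00623 joined it under the probe set median. Signal over background was judged only by the floor, so differences of members that lie below it on 1 side, such as HHIP-AS1 and STARD4-AS1 on LACZ, are of uncertain size.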

Other observations

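Within 500 kb of the 13 members higher on all 4 factor arrays, 142 other named genes were measured, of which 10 (7.04%) were higher and 2 lower on all 4 factor arrays, beside 2.17% higher over all named genes and 5.9% over those reaching 7. Of the 10, 5 were the partners CADM3, HHIP, SUCLG2, TRAM2 and ZFHX4 described above. The other 5 included GSTA4, a glutathione transferase of lipid aldehydes, near TRAM2-AS1, with 10.08 with FOXQ1, 10.68 with SNAI1, 10.52 with TWIST1 and 9.65 with ZEB2, against 5.77 with LACZ. The 2 lower included CDS1, an enzyme of phosphatidylinositol synthesis, near WDFY3-AS1, with 6.05, 4.73, 6.17 and 5.4 on the factor arrays, against 10.24 on LACZ. Within the same distance of the 4 members lower on all 4 arrays, 64 genes were measured, of which MAST4 was lower and FKBP9, a protein of the endoplasmic reticulum, was higher on all 4.

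SUCLG2-DT carried exactly the same deposited value, 8.97, on 3 factor arrays. A value repeated on at least 3 of the 5 arrays occurred for 2 of 123 members (1.63%), SUCLG2-DT and PGM5P3-AS1, for 31 of 4965 other named genes that reached 7 (0.624%) and for 771 of 14916 named genes (5.17%). What set these repeats was not tested, and they mean that the differences of SUCLG2-DT on FOXQ1, TWIST1 and ZEB2 are the same number.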
